A study of Mus musculus with 3 samples.

Results

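The genes described here are the 6 that encode the RIG-I-like receptors, their closest partners and the kinase PKR: Ddx58, Ifih1, Dhx58, Rnf135, Mavs and Eif2ak2. They were chosen by symbol, with earlier results of these data known. They are 6 of the 55450 genes annotated in GENCODE M21, and each symbol matched 1 gene identifier. RNA of the chromatin fraction was measured by total RNA sequencing after ribosomal RNA depletion in bone-marrow-derived macrophages (BMDM), primary cells grown from the marrow of C57BL/6J mice. All 3 libraries belong to 1 group. Macrophages of this group were first exposed for 12 h to 100 ng/ml of Lipid A, the TLR4-activating moiety of lipopolysaccharide. They were then kept without it for 12 h and stimulated again with 100 ng/ml for 15 min. No untreated cells were analysed here, so no value below is a response to Lipid A. The labels give a single donor for the 3 biological replicates and do not say whether the cells came from separate mice, so the spread between libraries may be partly technical. The sex and age of the mice were not collected.

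RIG-I-like receptors are helicases of the cytosol that bind double-stranded RNA, such as that made when viruses replicate. Once bound to RNA, RIG-I and MDA5 expose caspase recruitment domains, which join those of the adaptor MAVS on mitochondria and lead to activation of the kinases TBK1 and IKK epsilon, of IRF3, IRF7 and NF-kB, and to interferon production. PKR binds double-stranded RNA independently of MAVS and phosphorylates the translation initiation factor eIF2, which halts protein synthesis. Ddx58, Ifih1, Dhx58 and Eif2ak2 are known as interferon-stimulated genes, whereas Mavs is broadly expressed.

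Chromatin RNA holds transcripts still attached to the polymerase or not yet released, so it is rich in RNA that is not fully spliced. The libraries held 14609979, 17423948 and 24162551 expected counts in replicates 1, 2 and 3. The starting RNA was 1 µg for replicate 1, 250 ng for replicate 2 and 500 ng for replicate 3, so the amount of RNA and the replicate cannot be told apart. Macrophage markers were present: all 8 of a list with Adgre1, Csf1r and Cd68 had at least 1 TPM, and their summed level was 972, 978 and 869 TPM. Of the markers of neutrophils, dendritic cells, lymphocytes, stromal cells, erythroid cells and mast cells or basophils, Zbtb46 of the dendritic list alone averaged 1 TPM or more by the gene table, and no such list summed to more than 2.26 TPM in any library. In the read-based table the means of 3 neutrophil, 2 dendritic, 2 lymphocyte and 1 stromal marker reached 1 TPM, with the T cell gene Cd3d at 15.2 ± 2.43 TPM there and 0.0167 ± 0.0289 TPM in the gene table (SD, n = 3 each). TPM is an abundance per length, scaled to the same total in each library.

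Promoter sequences from RefSeq (GRCm38.p6) were searched for the core of the interferon-stimulated response element, the site of IRF and ISGF3 proteins. The pattern was GAAA, any 2 bases and GAAA, on both strands, in windows of 250 bases before and 50 bases from the start of each gene. Of the members, 5 were in the table and 3 held a match, Ddx58, Ifih1 and Eif2ak2, against 1131 of all 32851 windows (3.44%). Mavs and Rnf135 held no match to these letters. The matches are shown with the pattern in capitals, 5′ to 3′ on the strand of the gene, all of which lie on the minus strand; Ddx58 carries the pattern as its reverse complement.
Ddx58, chr4:40239804-40239833: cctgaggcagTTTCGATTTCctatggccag
Ifih1, chr2:62646206-62646235: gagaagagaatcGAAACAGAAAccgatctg
Eif2ak2, chr17:78882535-78882564: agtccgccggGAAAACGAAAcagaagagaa
Counted from the start of the gene in RefSeq, which differs by a few bases from that in GENCODE M21 for Ddx58 and Eif2ak2, the pattern covered bases 3 to 12 in Ddx58, 33 to 42 in Ifih1 and 19 to 28 in Eif2ak2. In each of these genes it lay just downstream of the start. These are matches of letters, and binding was not measured.

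All 6 genes were detected, and 4 of them were among the more abundant protein-coding genes of chromatin RNA. The median of their levels, as log2(TPM + 1), was 6.89 ± 0.24 (SD, n = 3), and the median over the 10639 protein-coding genes with at least 1 TPM was 3.66 ± 0.03. Ddx58, Eif2ak2, Dhx58 and Ifih1 ranked 144, 181, 409 and 476 among protein-coding genes, and Rnf135 and Mavs ranked 3928 and 5685.

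Ddx58 encodes RIG-I, which recognises short double-stranded RNA with a triphosphate end. The gene (ENSMUSG00000040296.15, chr4:40203773-40239828 in mm10, minus strand) had 308, 211 and 220 TPM in replicates 1, 2 and 3, a mean of 246 ± 54.0 TPM (SD, n = 3), from 6597, 5762 and 7971 expected counts. It was the highest of the 6 genes in every library, and replicate 1 stood above the other 2.

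Ifih1 encodes MDA5, which assembles along long double-stranded RNA. The gene (ENSMUSG00000026896.14, chr2:62595798-62646255, minus strand) had 146, 94.4 and 97.0 TPM, a mean of 112 ± 29.1 TPM (SD, n = 3), from 6225, 4919 and 6464 expected counts. Replicates 2 and 3 were close to each other and replicate 1 was above both.

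Dhx58 encodes LGP2, which lacks the caspase recruitment domains and modulates the other receptors. The gene (ENSMUSG00000017830.15, chr11:100694884-100704271, minus strand) had 139, 113 and 124 TPM, a mean of 126 ± 13.1 TPM (SD, n = 3), from 2117, 2229 and 3284 expected counts. It had the smallest spread of the 6 genes in alignment-based log2(TPM + 1), with an SD of 0.15; in the read-based table its SD was 0.13 and that of Rnf135 was 0.11.

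Rnf135 encodes Riplet, the ubiquitin ligase that modifies RIG-I. The gene (ENSMUSG00000020707.6, chr11:80183851-80199757, plus strand) had 23.0, 14.0 and 17.8 TPM, a mean of 18.2 ± 4.50 TPM (SD, n = 3), from 481, 363 and 577 expected counts. Its level was below that of every receptor gene in each library.

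Mavs encodes the adaptor on which RIG-I and MDA5 converge. The gene (ENSMUSG00000037523.13, chr2:131234063-131248025, plus strand) had 8.90, 12.0 and 10.3 TPM, a mean of 10.4 ± 1.57 TPM (SD, n = 3), from 304, 498 and 547 expected counts. It was the lowest of the 6 genes in every library, and unlike the others it was lowest in replicate 1 and highest in replicate 2. Ddx58 exceeded Mavs by 4.42 ± 0.49 on the log2(TPM + 1) scale (SD, n = 3), a ratio of 23.6 between the mean TPM values, and Ifih1 exceeded it by 3.29 ± 0.53, a ratio of 10.8.

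Eif2ak2 encodes PKR. The gene (ENSMUSG00000024079.4, chr17:78852564-78882573, minus strand) had 265, 193 and 196 TPM, a mean of 218 ± 41.1 TPM (SD, n = 3), from 5397, 4886 and 6727 expected counts. Replicate 1 was again the highest. The other kinases of eIF2 were far lower: Eif2ak4 had 29.2 ± 4.22 TPM, Eif2ak1 10.8 ± 0.826 TPM and Eif2ak3 7.82 ± 0.549 TPM (SD, n = 3 each). They encode GCN2, HRI and PERK, which sense amino acid shortage, haem shortage and endoplasmic reticulum stress.

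**Figure D1:**
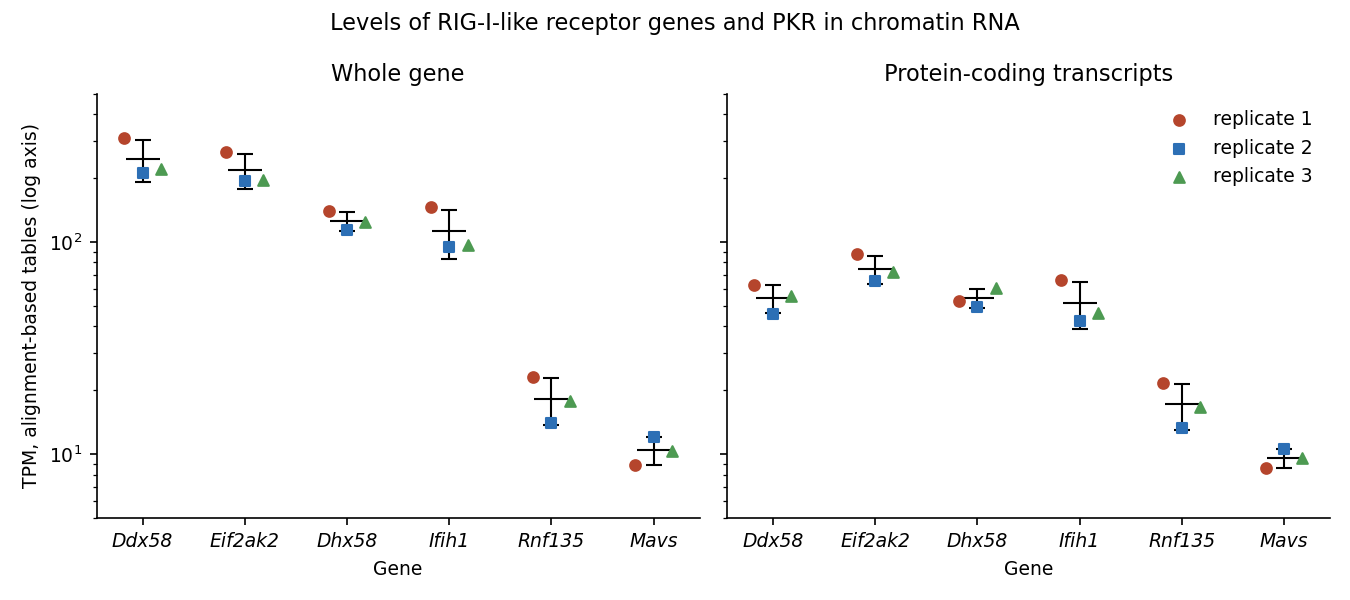
Abundance of the 6 genes in TPM on a log axis, for the whole gene (left) and for its protein-coding transcripts (right), from the alignment-based tables. Points are the 3 libraries, and the bars are the mean ± SD. In whole genes Ddx58 is highest at 246 TPM and Mavs lowest at 10.4 TPM, while in protein-coding transcripts Ddx58, Dhx58 and Ifih1 lie together near 54.5, 54.1 and 51.6 TPM.

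In order of whole-gene TPM, Ddx58 was followed by Eif2ak2, Dhx58, Ifih1, Rnf135 and Mavs. Of the 5 neighbouring pairs, 4 kept the same sign of the difference in log2(TPM + 1) in all 3 libraries. With 3 libraries an exact sign-flip test, two-sided, cannot give a p under 0.25, so no test was used. Ddx58 exceeded Eif2ak2 by 0.17 ± 0.04 (SD, n = 3) within each library, although the ranges of the 2 genes across libraries overlapped. Eif2ak2 exceeded Dhx58 by 0.78 ± 0.14, Ifih1 exceeded Rnf135 by 2.56 ± 0.15 and Rnf135 exceeded Mavs by 0.73 ± 0.54, with no overlap of ranges. The last of these varied most, from 0.20 in replicate 2 to 1.27 in replicate 1. Dhx58 and Ifih1 could not be put in order, since the difference was -0.07, 0.26 and 0.35 in replicates 1, 2 and 3.

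The upper part of this order depended on which transcripts were counted. The 6 genes have 31 annotated transcripts, of which 9 are protein-coding and 22 are not. On the protein-coding transcripts alone, a choice made after the data were seen, Eif2ak2 was highest with 87.2, 65.1 and 71.9 TPM, a mean of 74.7 ± 11.3 TPM (SD, n = 3). Ddx58 had 62.4, 45.8 and 55.4 TPM, Dhx58 had 52.6, 49.5 and 60.3 TPM, and Ifih1 had 66.3, 42.2 and 46.3 TPM. Eif2ak2 exceeded Ddx58 by 0.45 ± 0.07 on the log2(TPM + 1) scale, in all 3 libraries and with no overlap. The 3 receptor genes could not be ordered: Ddx58 differed from Dhx58 by 0.00 ± 0.21, and Dhx58 from Ifih1 by 0.09 ± 0.37 (SD, n = 3). The difference between Ddx58 and the other 2 receptor genes in whole-gene TPM thus lay in transcripts annotated as non-coding. Ddx58 has 8 of these, Dhx58 has 5 and Ifih1 has 3. The part of the annotation in this difference was not tested. Rnf135, with 17.2 ± 4.16 TPM, and Mavs, with 9.59 ± 0.986 TPM in protein-coding transcripts, stayed below them.

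The protein-coding share of TPM differed widely among the genes. It was 20.2, 21.7 and 25.2% in Ddx58, a mean of 22.4 ± 2.56% (SD, n = 3), and 34.5 ± 2.00% in Eif2ak2, 43.3 ± 5.42% in Dhx58 and 46.0 ± 1.62% in Ifih1. In Mavs it was 92.5 ± 4.37% and in Rnf135 94.3 ± 0.766%. The median over the 6 genes was 44.6 ± 3.33%, and the median over 10607 genes with a protein-coding transcript and at least 1 TPM was 56.8 ± 1.53%. Over the 8693 of these that also have another transcript type it was 48.5 ± 1.43%. Of 10629 genes ranked by this share, 11.3% lay below Ddx58, 23.9% below Eif2ak2, 34.5% below Dhx58 and 37.6% below Ifih1.

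In the alignment-based table, nearly all of the non-coding TPM of the 4 abundant genes came from transcripts with an exon that runs unbroken across an exon-intron border of a protein-coding transcript, called border-crossing here. There were 15 such transcripts with 18 crossed borders: 7 transcripts in Ddx58, 3 in Dhx58, 3 in Eif2ak2, 2 in Ifih1 and 0 in Mavs and Rnf135. None of the 31 transcripts held a whole intron. RNA across a border can be counted as border-crossing only where such a transcript is annotated. The shares therefore depend on the annotation, and none could be given for Mavs and Rnf135. The class retained_intron of the annotation covers only part of them, 2 in Ifih1 and 2 in Eif2ak2, so the median share of that class over the 6 genes was 0, against 25.4 ± 1.09% over the 10607 genes. In Ifih1 the class took 50.3 ± 1.74% of the TPM and in Eif2ak2 41.1 ± 2.03% (SD, n = 3 each).

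**Figure D2:**
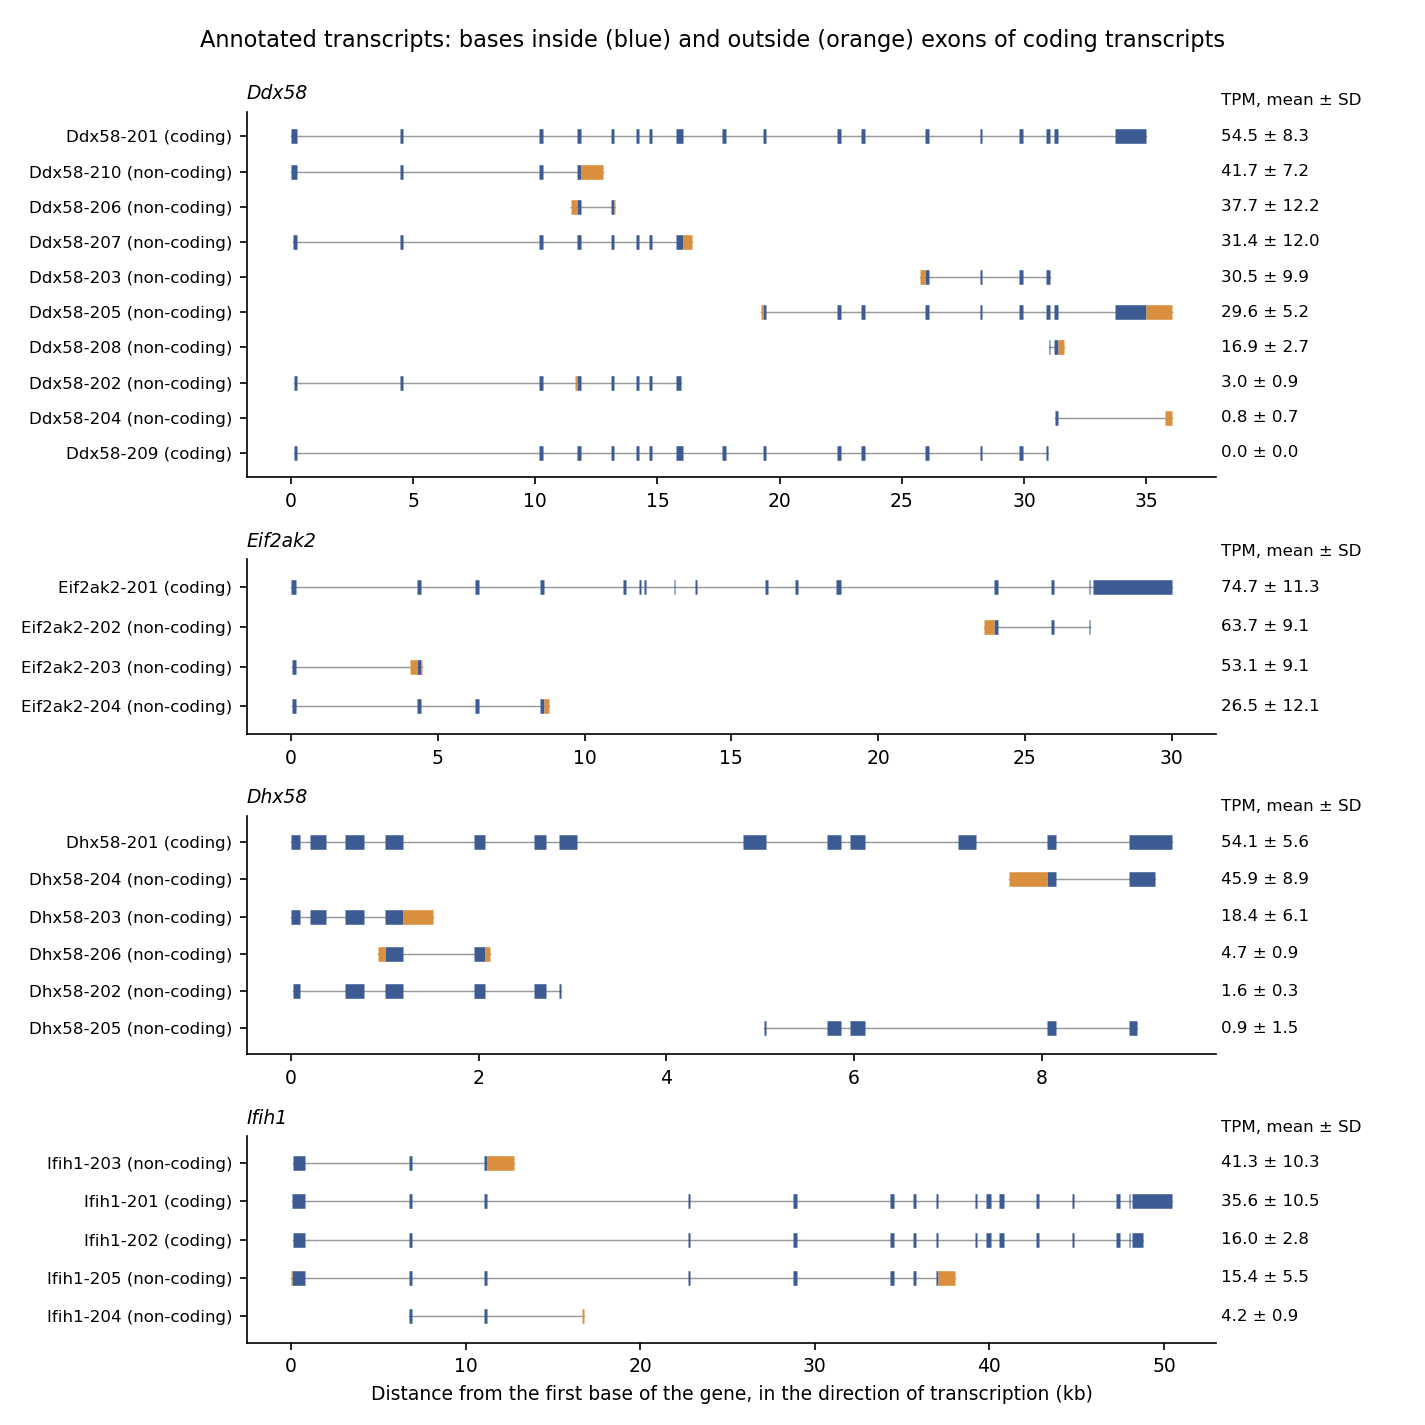
Annotated transcripts of the 4 abundant genes, drawn to scale from the first base of the gene in kb, with bases inside exons of protein-coding transcripts in blue and bases outside them in orange. The numbers at the right are the mean TPM ± SD of the 3 libraries. Ddx58-210 and Ifih1-203 follow the first exons of the protein-coding transcript and then run into an intron, while Dhx58-204 and Eif2ak2-202 begin in an intron near the other end.

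The sequences at the crossed borders are shown for the border-crossing transcripts with the highest TPM and for a donor and an acceptor in each of Dhx58 and Eif2ak2, since a read across such a border comes from RNA not spliced there. They were read from the GENCODE M21 transcripts, 5′ to 3′ on the minus strand of mm10, with exon bases in lower case and intron bases in capitals.
Ddx58-210, donor, chr4:40227951-40227980: ggattgttgataaagGTGGGGTGCTCCAAG
Ifih1-203, donor, chr2:62635041-62635070: cgtctgtgaccacagGTACCCGGCATGGGA
Dhx58-203, donor, chr11:100703064-100703093: gatcacatcctacagGTCAGCTGAGCCCCT
Dhx58-204, acceptor, chr11:100696197-100696226: CTCCATTCTTTCTAGggtctactataccac
Eif2ak2-204, donor, chr17:78873928-78873957: tgagttgcctcaaagGTGAGAGACTTCTAC
Eif2ak2-202, acceptor, chr17:78858618-78858647: AATTTTTTTCTATAGccaggtaatatattt
The intron side began with GT at each donor and ended with AG at each acceptor of the 18 borders. The exon side was coding sequence at all of them except the acceptor of Eif2ak2-203. Whether these RNAs are stable isoforms or precursors caught before splicing was not tested.

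In Ddx58, border-crossing transcripts had 245, 164 and 164 TPM, 77.3 ± 2.35% of the gene (SD, n = 3). The highest was Ddx58-210 with 41.7 ± 7.19 TPM, a transcript of 1607 nt with 907 intron bases, followed by Ddx58-206 with 37.7 ± 12.2 TPM. The protein-coding Ddx58-201 had 54.5 ± 8.34 TPM and was the highest single transcript of the gene in the alignment-based table. In the read-based table it had 41.4 ± 7.20 TPM, below Ddx58-208 with 95.6 ± 8.32 TPM and Ddx58-206 with 62.3 ± 18.8 TPM. Ddx58-203 also had a higher mean there, 44.7 ± 19.3 TPM, but was above Ddx58-201 in replicate 1 alone. The other protein-coding transcript of the gene, Ddx58-209, was listed at 0 in all libraries of the alignment-based table. It had 11.7 to 15.0 TPM in the read-based table.

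In Ifih1, border-crossing transcripts had 74.5, 48.7 and 46.8 TPM, 50.3 ± 1.74% of the gene. In the read-based table their share was 27.8 ± 1.59%, and the other non-coding transcript, Ifih1-204, took 43.0 ± 2.49% (SD, n = 3 each). Ifih1-203, of 2565 nt with 1568 intron bases, had 53.0, 37.6 and 33.4 TPM. The protein-coding Ifih1-201 had 47.7, 29.3 and 29.9 TPM, below Ifih1-203 in each library. Among the 6 genes, Ifih1 alone had a non-coding transcript as its highest in the alignment-based table. In the read-based table Ddx58-208, Ifih1-204, Eif2ak2-203 and Rnf135-202 were each the highest of their gene.

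In Dhx58, border-crossing transcripts had 85.3, 61.8 and 60.0 TPM, 54.7 ± 6.44% of the gene. In the read-based table their share was 52.1 ± 3.40%, beside 19.0 ± 0.913% for other non-coding transcripts. Dhx58-204, of 786 nt with 409 intron bases, had 45.9 ± 8.92 TPM, and the protein-coding Dhx58-201 had 54.1 ± 5.57 TPM. Dhx58-204 was above it in replicate 1 alone, with 56.2 TPM against 52.6 TPM. Dhx58 overlaps the antisense gene Dhx58os by 2637 bp, which had 4.45, 4.09 and 4.27 TPM. No label or header says whether the counting used strand, so reads of the 2 genes cannot be told apart in the overlap. All of Dhx58-204 lies inside this overlap of the gene spans.

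In Eif2ak2, border-crossing transcripts had 178, 127 and 124 TPM, 65.5 ± 2.00% of the gene. Eif2ak2-202, of 628 nt with 348 intron bases, had 63.7 ± 9.13 TPM and Eif2ak2-203 had 53.1 ± 9.14 TPM, against 74.7 ± 11.3 TPM for the protein-coding Eif2ak2-201. Eif2ak2 overlaps the lincRNA gene Gm26637 by 532 bp at its start, which had 9.74, 7.99 and 7.64 TPM, and holds the ribosomal RNA gene n-R5s29 on the other strand. That gene, n-R5s29, was listed at 0 TPM in the alignment-based table and at 222, 12.6 and 41.7 TPM in the read-based table. The first bases of Eif2ak2-202 lie inside n-R5s29. The first exon of Eif2ak2 lies inside Gm26637, which is also on the other strand. As for Dhx58, the use of strand is not given, so reads cannot be told apart in these overlaps. Ddx58, Ifih1, Mavs and Rnf135 overlap no other annotated gene.

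Mavs and Rnf135 were nearly all protein-coding in the alignment-based table. Mavs-201 had 5.52 ± 0.330 TPM and Mavs-202 had 4.07 ± 0.895 TPM, and the nonsense-mediated decay transcript Mavs-203 had 0.647 ± 0.375 TPM (SD, n = 3 each). Rnf135-201 had 17.2 ± 4.16 TPM and the short Rnf135-202 had 1.05 ± 0.349 TPM. In the read-based table the protein-coding share of TPM was 62.7 ± 3.35% in Mavs and 33.8 ± 5.24% in Rnf135. Mavs-203 took 25.9 ± 2.62% of Mavs there (SD, n = 3 each).

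Because TPM is per length, short transcripts weigh more in it than in counts. Border-crossing transcripts took 65.5 ± 2.00% of the TPM of Eif2ak2 but 15.3 ± 1.81% of its expected counts. In Ddx58 they took 53.8 ± 3.46% of the counts, in Ifih1 36.2 ± 1.26% and in Dhx58 25.2 ± 5.58% (SD, n = 3 each). Ddx58 thus had the largest border-crossing share of the 4 on both scales, while Eif2ak2 was second by TPM and last by counts.

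**Figure D3:**
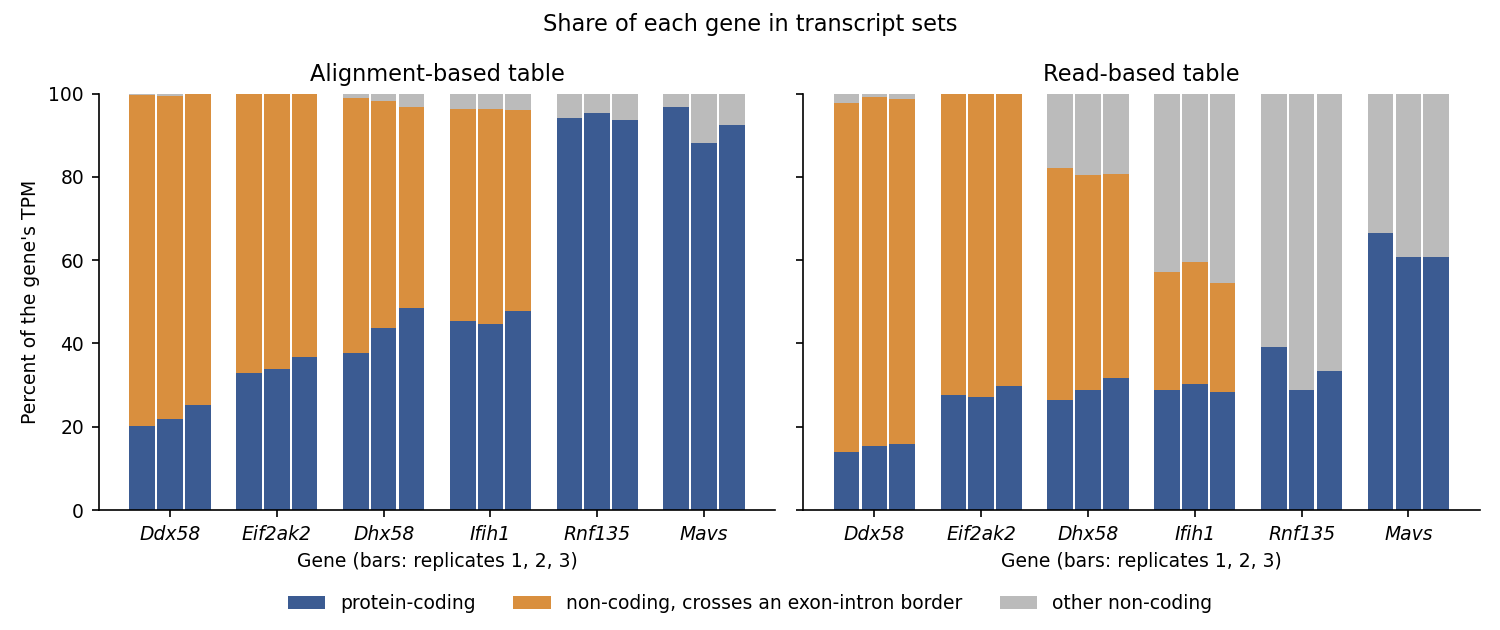
Percent of the TPM of each gene in protein-coding transcripts (blue), border-crossing non-coding transcripts (orange) and other non-coding transcripts (grey), in the alignment-based table (left) and the read-based table (right). The 3 bars of a gene are replicates 1, 2 and 3. Ddx58 has the smallest protein-coding share in both tables, 22.4% and 15.1%, and Rnf135 falls to 33.8% in the read-based table, against 94.3% in the alignment-based table.

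The read-based table, estimated from the reads themselves, gave higher whole-gene levels. Ddx58 had 437, 326 and 332 TPM there, Eif2ak2 329, 256 and 246 TPM, Dhx58 197, 165 and 178 TPM, Ifih1 219, 135 and 151 TPM, Rnf135 57.3, 51.8 and 49.5 TPM, and Mavs 10.4, 14.2 and 11.0 TPM. The order of the 6 genes was the same in both tables. The ratio of read-based to alignment-based mean TPM lay between 1.14 in Mavs and 2.90 in Rnf135. For protein-coding transcripts it lay between 0.951 and 1.05 except in Mavs, where it was 0.773. Large differences between the tables lay in short non-coding transcripts, though not only there. Rnf135-202, of 333 nt, had 34.8, 37.0 and 33.0 TPM in the read-based table, against 1.36, 0.670 and 1.11 TPM in the alignment-based one. Ifih1-204, of 439 nt, had 94.1, 54.6 and 68.7 TPM against 5.26, 3.54 and 3.79 TPM, and Ddx58-208, of 435 nt, had 88.2, 105 and 94.1 TPM against 19.0, 17.9 and 13.9 TPM.

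Between libraries, 5 of the 6 genes were highest in replicate 1, as were 39.4% of the 15862 genes with a mean expected count of at least 10. The same 5 were lowest in replicate 2, and Mavs had the opposite pattern. As log2(TPM + 1) minus the mean of the other 2 libraries, replicate 1 deviated by 0.60 in Ifih1, 0.52 in Ddx58, 0.51 in Rnf135, 0.45 in Eif2ak2 and 0.23 in Dhx58, and by -0.30 in Mavs. The median over the 6 genes was 0.48, -0.27 and -0.11 in replicates 1, 2 and 3, against 0.02, -0.03 and 0.02 over all detected genes. Only Ifih1 passed a 1.5-fold difference in replicate 1, that is 1 of 6 genes, and 4.87% of detected genes did. None of the 6 passed it with TMM-scaled counts or in protein-coding transcripts, and 2 passed it without replicate 3. The share of all detected genes past it was not computed for these settings. The median SD over libraries on the log2 scale was 0.28 for the 6 genes and 0.16 for detected genes, with 5 of the 6 above the median of detected genes. A single library against 2 others has no replicate check, so these are descriptions.

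**Figure D4:**
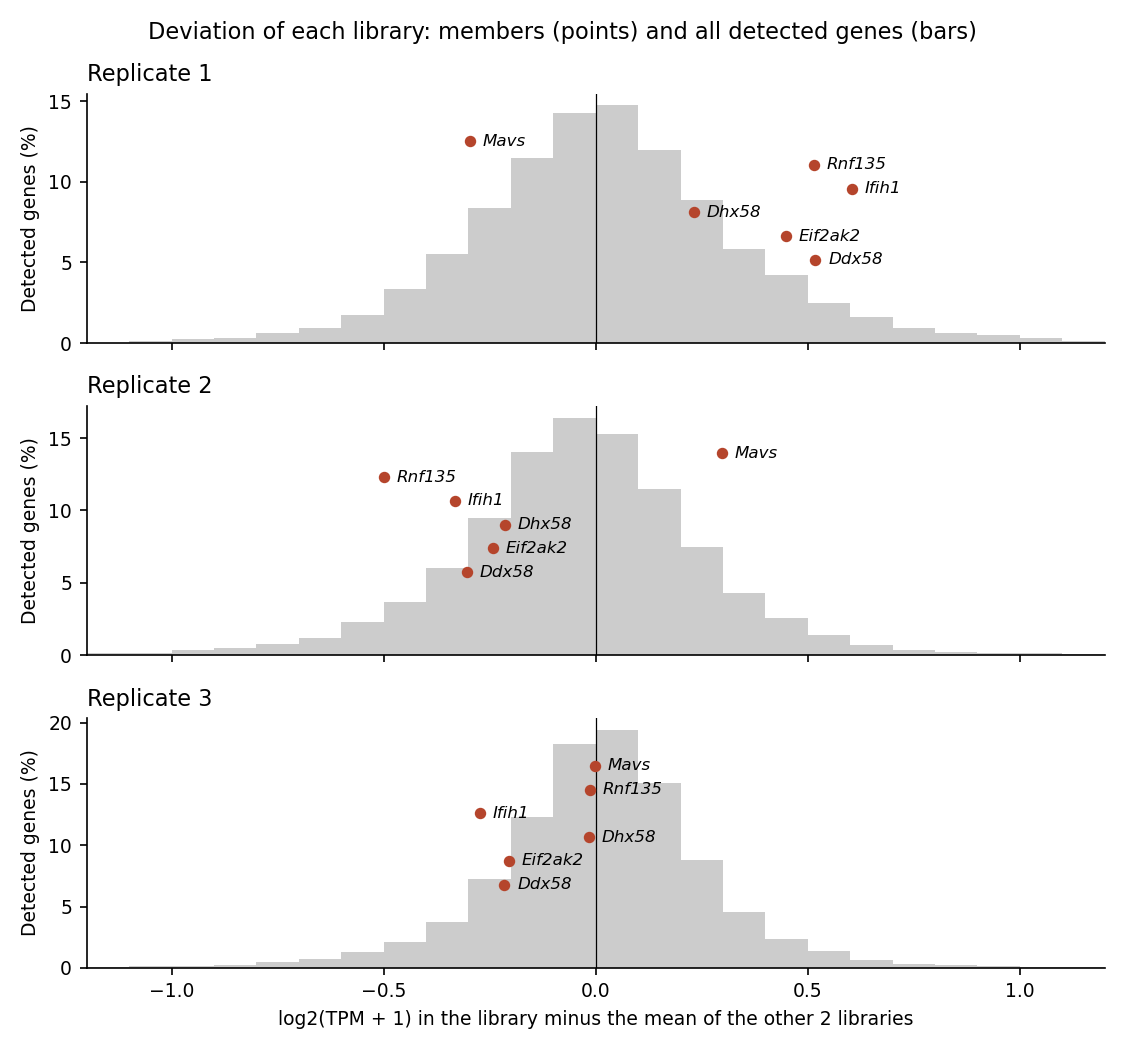
Deviation of each library from the mean of the other 2 in log2(TPM + 1), for the 6 genes (points, placed at arbitrary heights) and as the percent of all detected genes per bin (grey bars). In replicate 1 the points of 5 genes lie at 0.23 to 0.60 and that of Mavs at -0.30, and in replicate 2 the sides are exchanged.

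The higher values of replicate 1 were seen under every scaling tried for Ddx58, Ifih1, Eif2ak2 and Rnf135; Dhx58 was higher there by 0.23 in whole-gene TPM but deviated by -0.05 in its protein-coding transcripts. Mavs was lower in replicate 1 under all of them. Replicate 1 had the smallest number of counts and the largest amount of starting RNA, and their part in this was not tested. In bulk RNA, more cells with a transcript and more of it per cell cannot be told apart.

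Border-crossing and protein-coding transcripts were also set side by side in replicate 1, in alignment-based TPM. In Ddx58 the ratio of replicate 1 to the mean of the others was 1.49 for border-crossing and 1.23 for protein-coding TPM, in Eif2ak2 1.42 and 1.27, in Dhx58 1.40 and 0.958, and in Ifih1 1.56 and 1.497. The order was not the same in every pair of libraries: from replicate 1 over replicate 2, Ifih1 had 1.53 for border-crossing and 1.57 for protein-coding TPM. In the read-based table Eif2ak2 had 1.27 and 1.31 for that pair. The protein-coding share of expected counts was lowest in replicate 1 in 4 of the 6 genes, as in 48.1% of 6983 genes, and highest in replicate 3 in 4 of them, as in 48.4%. Over those genes the median share was 67.4, 68.3 and 69.6% in replicates 1, 2 and 3. The members' counts are near this background.

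Genes that act with the receptors were nearly all present: 102 of 105 genes in 6 lists had at least 1 TPM (97.1%), against 10639 of 21951 protein-coding genes (48.5%). Of the 105, 83 had a higher mean than Mavs and 8 a higher mean than Ddx58. As background for the counts per list below, 39.4% of all detected genes were highest in replicate 1 and 4.87% passed 1.5-fold there. The lists were chosen for this pathway, with earlier results of these data known. They are described by their counts and medians, with no test.

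For signalling downstream of the receptors, all 19 listed genes had at least 1 TPM, with a median log2(TPM + 1) of 5.29 ± 0.12 (SD, n = 3). Ikbke, which encodes the kinase IKK epsilon, was the highest with 1209, 1079 and 1038 TPM, and Irf7, the interferon regulatory factor that amplifies type I interferon, had 461, 299 and 341 TPM. Fadd, a death domain adaptor, was the lowest with 1.85 ± 0.146 TPM. Of the 19, 10 were highest in replicate 1 and only Tank, a scaffold of TBK1 named after its values were seen, passed 1.5-fold there, with 115 TPM against 50.04 and 83.26 TPM in replicates 2 and 3.

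Among 17 genes listed as positive regulators of the receptors, 16 had at least 1 TPM and the median level was 5.24 ± 0.11. Ddx60, a helicase reported to bind RIG-I, had 477 ± 77.8 TPM and Riok3, a kinase, had 166 ± 30.2 TPM, while Zcchc3, a co-receptor of RIG-I and MDA5, had 0.393 ± 0.157 TPM (SD, n = 3 each). None of the 17 passed 1.5-fold in replicate 1, and 10 were highest there. Among 16 negative regulators, 15 had at least 1 TPM and the median was 4.82 ± 0.03. Pcbp2, which directs MAVS to degradation, had 134 ± 18.7 TPM, Tnfaip3, which encodes A20, had 69.4 ± 22.3 TPM, and Rnf125, a ligase for RIG-I, was at 0.0700, 0 and 0 TPM. Of the 15 detected, 8 were highest in replicate 1 and 1, Tnfaip3, passed 1.5-fold there.

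The eIF2 pathway, into which PKR feeds, was the lowest of the lists, with all 19 genes at 1 TPM or more and a median of 3.74 ± 0.07. Ddit3, the stress factor CHOP, had 77.3 ± 20.6 TPM, Atf4, the factor translated when eIF2 is phosphorylated, had 47.6 ± 5.15 TPM, and Eif2b5, a subunit of the exchange factor for eIF2, had 5.50 ± 0.355 TPM. Only 6 of the 19 were highest in replicate 1, and none passed 1.5-fold there. Eif2ak2 was above every gene of this list in the mean.

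Other RNA sensors and proteins that bind double-stranded RNA had a median of 6.10 ± 0.06, with 21 of 22 at 1 TPM or more. Ifit2 and Ifit3, which inhibit translation of viral RNA, had 379 ± 106 and 361 ± 79.5 TPM, and Adarb1, an RNA-editing enzyme, had 0.147 ± 0.0252 TPM. Of the 21 detected, 13 were highest in replicate 1 and 4 passed 1.5-fold there, Ifit2 and, named after their values were seen, Ifit1, Oasl1 and Tlr3. In the list of the interferon receptor and ISGF3, all 12 genes had at least 1 TPM and the median was 6.27 ± 0.29. Stat2, which encodes a subunit of the factor ISGF3, had 825, 645 and 625 TPM, a mean of 698 ± 110 TPM (SD, n = 3). Ifnb1, the gene of interferon beta, had 2.07, 0.51 and 0.70 TPM, above 1 TPM in replicate 1 alone. Its read-based mean was 0.894 TPM, and with a mean of 8.33 expected counts it was not called detected. Of the 11 detected genes of this list, 10 were highest in replicate 1 and 2 passed 1.5-fold, Usp18 and Isg15, both named after their values were seen. The shares over all detected genes were 39.4% and 4.87%.

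**Figure D5:**
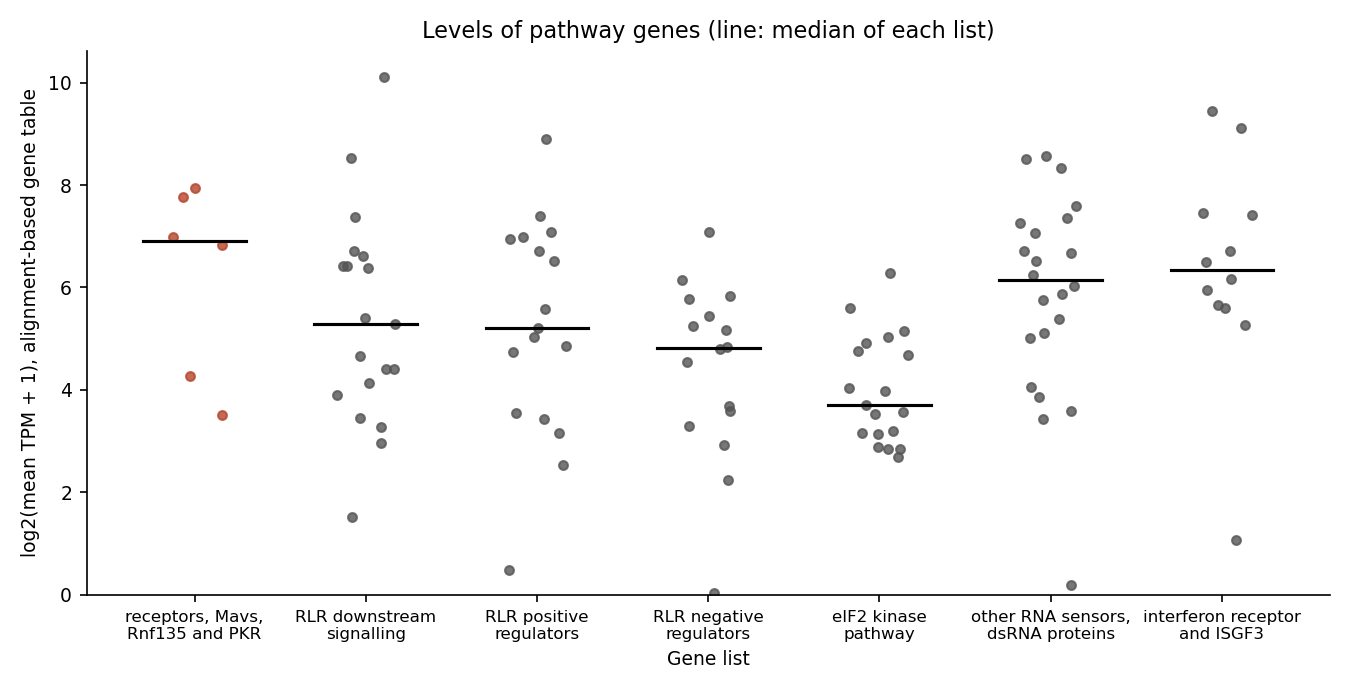
Mean level of each gene as log2(mean TPM + 1) for the 6 genes (red) and the 6 pathway lists (grey), with a line at the median of each list. The receptors and PKR lie between the top of the interferon and sensor lists and their medians, while Mavs and Rnf135 lie near the median of the eIF2 list, 3.74 on the mean of library medians.

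For each of the 6 genes, the protein-coding gene with the most similar values was the one at the smallest Euclidean distance of log2(TPM + 1) over the 3 libraries, among 11744 detected genes. It was Eif4g2, a translation factor, for Ddx58 (distance 0.0643), Acp2, a lysosomal acid phosphatase, for Ifih1 (0.0782), and Ddhd1, a phospholipase, for Dhx58 (0.0816). Themis2, a signalling adaptor of macrophages and B cells, was nearest to Eif2ak2 (0.0629), Rfx1, a transcription factor, to Mavs (0.0139), and H2-DMa, a chaperone of MHC class II, to Rnf135 (0.0594). Eif4g2 had 299, 216 and 224 TPM, beside 308, 211 and 220 TPM of Ddx58. Over 3 libraries such a distance reflects the level first, and it says nothing of shared function.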

How the data were processed

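Total RNA of the chromatin fraction was sequenced in 3 libraries of 1 group. Per the file headers and the README files deposited with them, the authors made a gene table and a transcript table of expected counts and TPM from alignments, and a second transcript table of estimated counts and TPM from the reads, on mm10 with GENCODE M21. The tools, their versions and the use of strand are not given in the sources used here. Expected counts that belong to no annotated gene made up 1.24, 0.482 and 0.228% of replicates 1, 2 and 3 and were left out. The read-based tables held 23135627, 30418666 and 40940944 estimated counts.

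Levels are TPM as deposited or log2(TPM + 1) with a pseudocount of 1, which understates differences of low genes. Genes averaging 10 or more expected counts were called detected. A library deviated by its value minus the mean of the others, and 1.5-fold was the call. Shares of expected counts used genes with a mean of at least 100 counts. With 1 group no test between conditions exists. The steps were run with Python 3.11.15 and pandas 2.3.3 and tested on simulated data. Counts rounded to whole numbers and scaled by TMM factors (edgeR 4.0.16) or size factors (DESeq2 1.42.0), the read-based table, TPM rescaled without features under 200 nt and the genes Gm26917, Gm42418 and CT010467.1, other thresholds and left-out libraries were alternatives. Named genes were the 6 genes, the 2 highest and the lowest of each list, the nearest gene to each of the 6, and the highest transcripts; 1 gene that this rule names is not reported here. The members and lists were chosen with earlier results of these data known.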

Additional observations from a re-analysis of the deposited data

How the results depend on the processing

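Of 78 alternative values, 54 stayed within the spread between libraries or within 1.5 times the count. Those 54 include the median retained_intron share in every setting. It was fixed at 0 because only Ifih1 and Eif2ak2 have transcripts of that class, so it says nothing of stability. The median level of the 6 genes, 6.89 on the log2(TPM + 1) scale, was 7.43 in the read-based table, 7.80 in rescaled TPM and 5.68 in protein-coding transcripts, and 6.75 to 6.98 with a library left out. Rescaled TPM were higher, 466 for Ddx58, 412 for Eif2ak2, 237 for Dhx58, 213 for Ifih1, 34.5 for Rnf135 and 19.6 for Mavs, with the order kept. The median deviation in replicate 3, -0.11, reversed to 0.048 without replicate 1 and was -0.39 without replicate 2. That in replicate 2, -0.27, was -0.048 without replicate 1 and -0.50 without replicate 3. Genes past 1.5-fold in replicate 1, 1 of 6, were 3 in rescaled TPM, 0 with TMM-scaled counts, 0 in protein-coding transcripts, and 1 to 2 with a library left out; 4 passed at a lower fold and 0 passed 2-fold. Rescaling moved the median deviation of all genes in replicate 1 to 0.09. The median protein-coding share, 44.6% of TPM, was 29.2% in the read-based table and 79.5% of expected counts. Rescaling raises the TPM of every gene kept, since each library is scaled to the same total again. Counts and TPM also weigh transcript length differently, as said above. Other causes of these changes were not tested. The share of a transcript within a gene is an estimate of each program, and the deposited tables differ in many short transcripts. No paired analysis was possible because there is 1 group. Protein-coding transcripts as an alternative were chosen after seeing the data.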
